A study of Mus musculus with 6 samples.

Results

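The genes described are those of the mouse major histocompatibility complex (MHC, named H2 in the mouse) and of the machinery that loads its molecules. They were chosen by name: every protein-coding gene whose symbol begins with H2- (34 genes), together with B2m, Tap1, Tap2, Tapbp, Cd74 and Ciita. That gives 40 members among the 54532 genes of the count table. MHC class I molecules display peptides made in the cytosol to CD8 T cells and natural killer cells, and almost every nucleated cell carries them. Class II molecules display peptides taken up from outside the cell to CD4 T cells, and in the liver they are mainly carried by dendritic cells, B cells, Kupffer cells and sinusoidal endothelium. Non-classical class I molecules, called class Ib here, share the fold of the classical class Ia molecules but have narrower or quite different ligands.

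The livers came from male mice that all were fed a high-fat diet, on which the liver stores fat, for 8 weeks from the age of 8 weeks. Of the 6 bulk RNA libraries, 3 are labelled Trem2 KO (replicates 4, 5 and 6) and 3 are labelled control or WT (replicates 1, 2 and 3), from littermates. Trem2 is a lipid-sensing receptor of macrophages. The labels do not give the strain, the Trem2 allele or the H2 haplotype of either group, nor whether a library stands for 1 mouse, so a p-value here sets the difference against library-to-library spread alone. The single comparison asks how liver expression on this diet differs where Trem2 is missing. Values are CPM, read counts scaled by edgeR's effective library size, or RPKM, the same divided by gene length in kilobases where genes are compared with each other.

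The libraries held between 11591021 and 20399361 counts. Mitochondrially encoded genes made up 28%, 9.08% and 19.8% of all reads in KO replicates 4, 5 and 6, and 8.16%, 12.7% and 10.2% in WT replicates 1, 2 and 3. The targeted gene, Trem2, had 9, 6 and 5 counts in the libraries labelled KO and 7, 26 and 26 in those labelled WT, so that WT replicate 1 lay among the KO libraries and Trem2 did not separate the labels (edgeR adjusted p = 0.633). Directions below are therefore between libraries as labelled. The 8 hepatocyte markers summed to between 76113 and 80418 CPM in KO-labelled and between 75553 and 108450 CPM in WT-labelled livers, as the tissue label says. Of these 8, 1 was fitted higher and 7 lower (median log2 −0.36), none past the edgeR threshold. Apoa1 and Serpina1a, named after their values were seen, were lower in every KO library than in any WT library. Such separation in that direction was found for 5.73% of all tested genes. In whole liver, fewer cells of a type and less RNA per cell cannot be told apart.

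No member of the family passed the test, and in every tested member the libraries of the groups overlapped. Of the 40 members, 24 had enough counts to be tested, and 0 of these 24 passed an adjusted p of 0.05 with edgeR's quasi-likelihood test. Over all 13693 tested genes the same rule called 0.0146%, all of them higher. At an unadjusted p under 0.05 stood 1 member, H2-T23, against 8.58% of all tested genes. DESeq2 called 0 members (1.29% of all genes) and limma-voom 0, whereas limma-voom with sample quality weights, which called 29.7% of all genes, called 2, H2-T23 and H2-Ab1. In 0 of the 24 tested members did the KO-labelled libraries lie wholly above or wholly below the WT-labelled ones, against 13.9% of all tested genes (8.12% higher and 5.73% lower). The fitted log2 changes of KO over WT had a median of 0.07 over the 24, and of −0.01 over all tested genes.

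How far a difference can be bounded depended on the gene. For 15 of the 24 tested members the 95% interval of the change lay within 2-fold either way, and for the other 9 it reached past 2-fold. The 9 were H2-T23, H2-Q6, H2-Q1, H2-T24, H2-M3, H2-DMb1, H2-Ob, Ciita and H2-Ke6. An adjusted p that missed the threshold does not show that any of the 24 was alike in the 2 groups, least of all these 9.

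**Figure D1:**
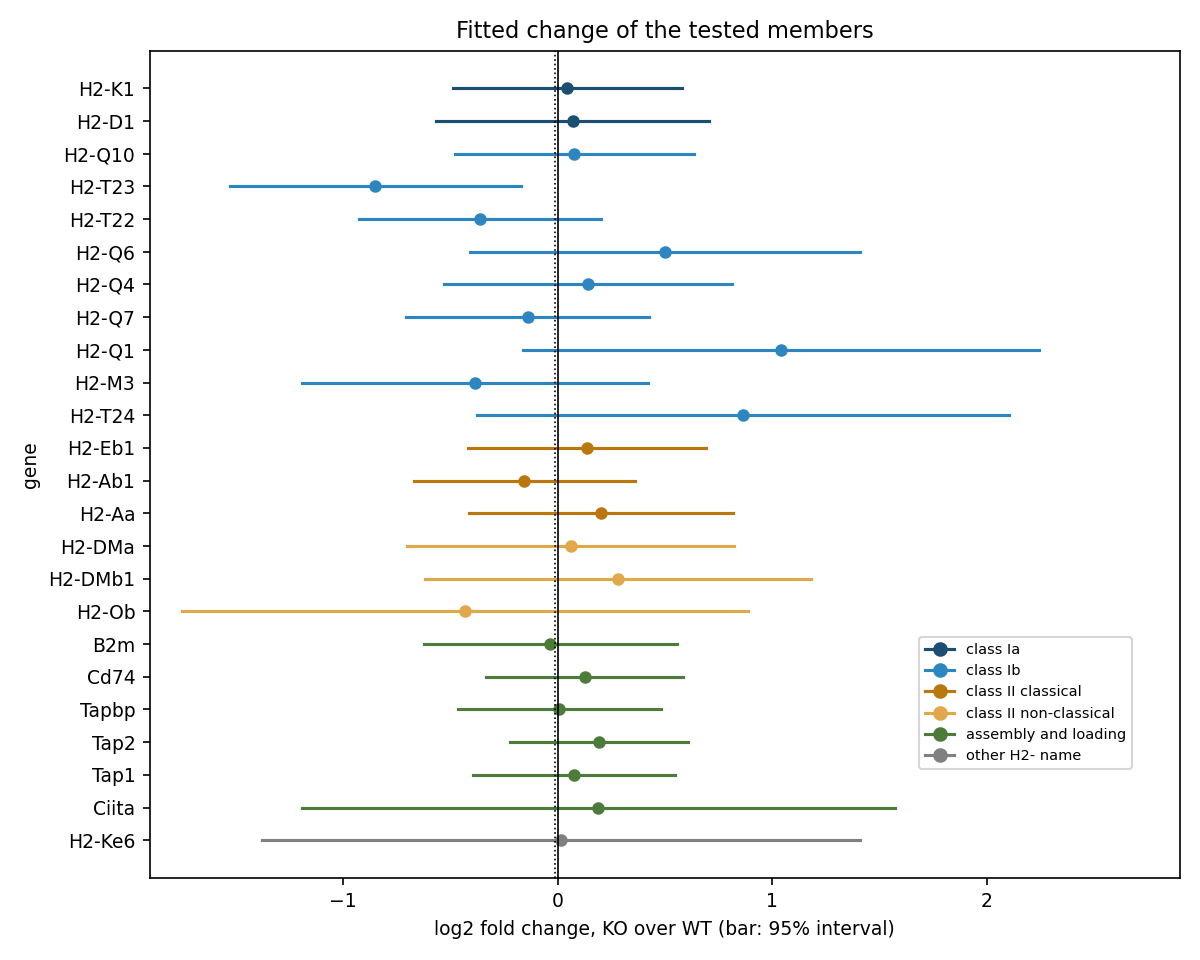
Fitted log2 fold change of KO-labelled over WT-labelled livers (x axis) for each of the 24 tested members (y axis), with its 95% interval as a bar and the class as colour; the dotted line is the median of all tested genes. The interval of H2-T23 alone leaves out 0, and the widest belong to Ciita, H2-Ob, H2-Ke6, H2-Q1 and H2-T24.

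The promoters of a few members show what the family shares outside its coding sequence. Classical MHC promoters are known for an X2 element, related to the sequence TGACG, followed by a Y element, which holds the letters CCAAT or their complement ATTGG. Of the 40 members, 34 had a promoter in the RefSeq table (GRCm38.p6), and the 150 bases before the start were searched on both strands. Those of B2m, of H2-K1 (the class I heavy chain with the highest mean RPKM), of the secreted H2-Q10 and of the class II genes H2-Aa and H2-Eb1 are shown to set the classes side by side. They are written 5′ to 3′ on the gene's strand. Capitals mark each match to TGACG or to the CCAAT letters on either strand.
B2m (chr2:122147537-122147686, plus strand): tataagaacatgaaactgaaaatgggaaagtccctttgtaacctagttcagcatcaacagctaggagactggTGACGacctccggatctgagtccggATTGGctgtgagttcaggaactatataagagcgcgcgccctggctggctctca
H2-K1 (chr17:34000334-34000483, minus strand): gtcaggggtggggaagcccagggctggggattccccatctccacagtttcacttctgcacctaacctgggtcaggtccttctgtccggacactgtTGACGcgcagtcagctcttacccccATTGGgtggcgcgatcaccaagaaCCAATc
H2-Q10 (chr17:35469939-35470088, plus strand): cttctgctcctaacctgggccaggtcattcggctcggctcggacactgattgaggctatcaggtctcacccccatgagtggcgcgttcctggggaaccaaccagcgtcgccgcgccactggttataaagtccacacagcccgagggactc
H2-Aa (chr17:34287824-34287973, minus strand): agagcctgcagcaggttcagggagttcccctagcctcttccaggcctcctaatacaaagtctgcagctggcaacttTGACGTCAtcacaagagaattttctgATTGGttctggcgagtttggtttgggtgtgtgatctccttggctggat
H2-Eb1 (chr17:34305717-34305866, plus strand): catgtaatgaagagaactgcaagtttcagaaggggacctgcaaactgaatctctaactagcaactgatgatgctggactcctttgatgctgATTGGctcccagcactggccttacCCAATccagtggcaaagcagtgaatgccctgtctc

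CCAAT was present in 28 of the 34 member promoters, against 24.5% of all 32851 promoters of the same length, and TGACG in 13 of the 34, against 13.3%. In the window of H2-Q10 neither set of letters occurred. B2m, H2-K1 and H2-Aa held both, and H2-Eb1 held CCAAT without TGACG. These matches are letters in a window, and no factor binding was measured. The RefSeq start lay 9664 bases from the start in the count table for H2-DMa, 3579 for Tapbp and 1942 for H2-DMb2. For the other matched members it lay at most 364 bases away. The windows of H2-DMa, Tapbp and H2-DMb2 are in these counts, though they do not adjoin the start in the count table.

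B2m, the light chain that every class I heavy chain needs to reach the cell surface, was the most abundant member by RPKM. It lies apart from the complex, on chromosome 2 (mm10, 122147686 to 122153083). Its level was 2683, 2288 and 2979 RPKM in KO replicates 4, 5 and 6, against 2686, 3119 and 2336 RPKM in WT replicates 1, 2 and 3. The groups overlapped fully, and the fitted log2 change was −0.03 (SE 0.25, 95% interval −0.62 to 0.56, edgeR adjusted p = 0.968).

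The classical class Ia heavy chains, H2-K1 and H2-D1, did not separate the groups. H2-K1 (chromosome 17, 33996017 to 34000333) had 618, 602 and 651 RPKM in KO-labelled livers and 682, 553 and 579 RPKM in WT-labelled livers. All 3 KO values fell inside the WT range. In CPM, the mean was 1626 ± 65.6 in KO-labelled and 1577 ± 178 in WT-labelled livers (SD, n = 3 each), a log2 change of 0.04 (SE 0.23, 95% interval −0.49 to 0.58, edgeR adjusted p = 0.956). H2-D1 (chromosome 17, 35262730 to 35267499) stood lower, at 214, 284 and 248.9 RPKM in KO-labelled and 310, 180 and 222 RPKM in WT-labelled livers. WT replicates 1 and 2 were its highest and lowest libraries, and its log2 change was 0.07 (SE 0.27, 95% interval −0.57 to 0.71, edgeR adjusted p = 0.939).

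The genes of class I peptide supply did not separate the groups. Tap1 and Tap2 form the transporter that carries peptides into the endoplasmic reticulum. Tap1 stood at 38.1, 30.5 and 26.0 CPM in KO-labelled and 29.7, 29.3 and 30.6 CPM in WT-labelled livers (log2 0.08, SE 0.20), with 2 of the 3 KO values outside the narrow WT range, 1 on each side. Tap2 stood at 29.8, 24.7 and 27.8 CPM in KO-labelled and 24.7, 23.3 and 24.0 CPM in WT-labelled livers (log2 0.19, SE 0.18). KO replicate 5 lay below WT replicate 1 by a narrow margin, so the groups overlapped. Tapbp, tapasin, which bridges the transporter and the class I molecule, stood at 70.5, 77.1 and 76.0 CPM in KO-labelled and 81.6, 59.4 and 81.2 CPM in WT-labelled livers (log2 0.01, SE 0.20). The sign of the Tapbp change, so close to 0, turned under RLE size factors, DESeq2 and limma on FPKM, among other settings. The edgeR adjusted p of these 3 genes ranged from 0.733 to 0.988.

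**Figure D2:**
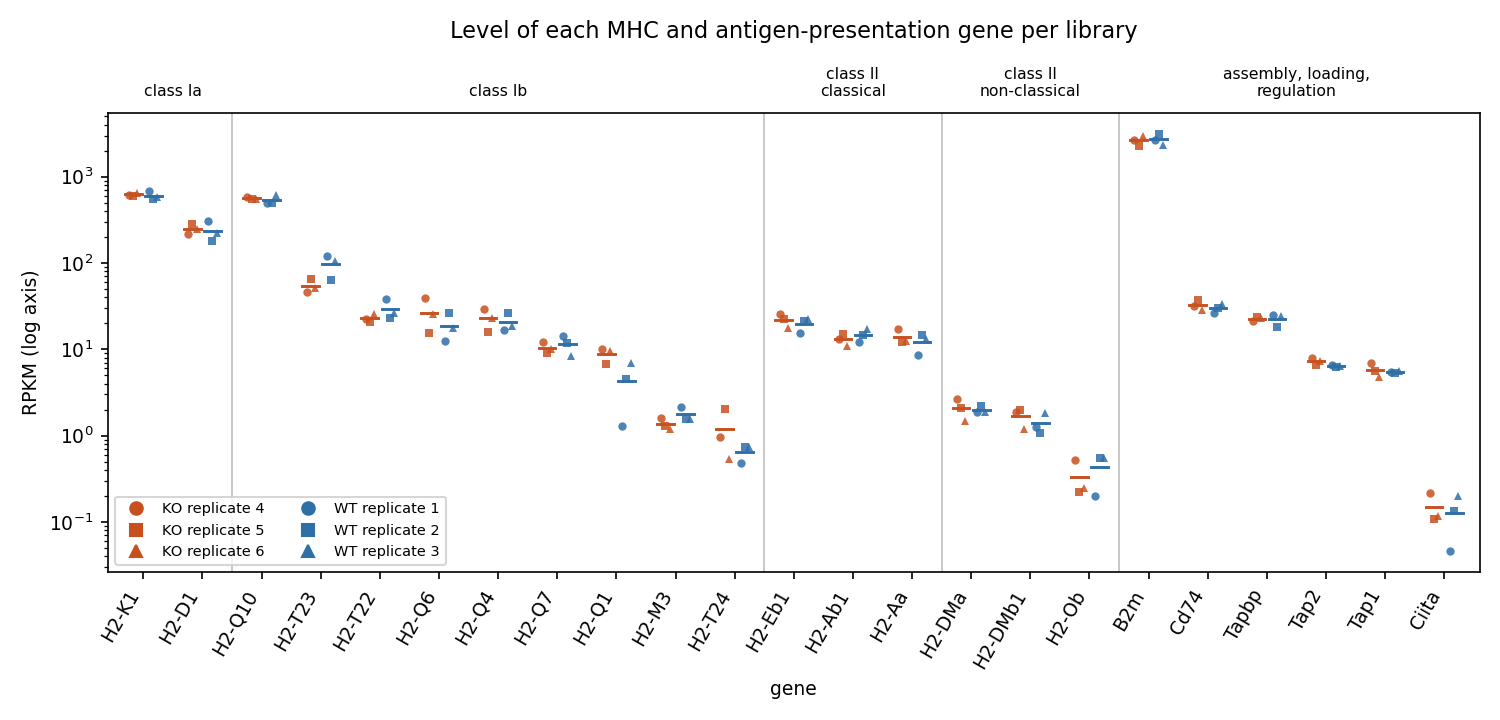
Level of each member with a mean of at least 1 CPM (23 genes, x axis) in RPKM on a log axis, KO-labelled libraries (orange, left) beside WT-labelled libraries (blue, right); points are libraries and lines are group means. B2m, H2-K1 and H2-Q10 lie at 493 RPKM or more in all 6 libraries, and classical class II genes between 8.51 and 25.5 RPKM.

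Class Ib is the largest class, with 22 members, of which 9 were tested. H2-Q10, a secreted class Ib molecule known for its production in the liver, made up most of it. It had 585, 551 and 559 RPKM in KO-labelled and 496, 493 and 616 RPKM in WT-labelled livers, close to H2-K1. That was 78.3%, 80.2% and 79.3% of the summed class Ib RPKM in KO-labelled and 70.5%, 75.6% and 76.8% in WT-labelled livers. Its own change was small (log2 0.08, SE 0.24, 95% interval −0.48 to 0.63, edgeR adjusted p = 0.922), and with H2-Q10 in it the class Ib sum came to 713 ± 30.7 RPKM in KO-labelled and 719 ± 75.8 RPKM in WT-labelled livers (SD, n = 3 each).

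H2-T23 showed the lowest fitted change of the family. It encodes Qa-1, which displays leader peptides of other class I chains to the CD94/NKG2 receptors of natural killer cells, and lies on chromosome 17 from 36029773 to 36032855. Its level was 132, 187 and 147 CPM in KO-labelled livers, against 351, 184 and 304 CPM in WT-labelled livers. WT replicate 2 lay among the KO libraries, so the groups overlapped. The 3 lowest libraries were KO replicates 4 and 6 and WT replicate 2, those with the highest mitochondrial shares (28%, 19.8% and 12.7%). The part of that share in the H2-T23 level was not tested beyond the covariate fit given below. The mean was 155 ± 28.03 CPM in KO-labelled and 280 ± 86.1 CPM in WT-labelled livers (SD, n = 3 each), a fold change of 0.555 (log2 −0.85, SE 0.29, 95% interval −1.53 to −0.17). It did not pass over all genes (edgeR unadjusted p = 0.0205, adjusted p = 0.504), and 556 other genes had a smaller unadjusted p. A fit that adjusts for the mitochondrial share of each library, chosen after the values were seen, gave a log2 change of −0.50, and leaving out WT replicate 1 and KO replicate 4 together gave −0.55.

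Its neighbour H2-T22, a ligand of some gamma delta T cell receptors, showed a smaller difference of the same sign. It stood at 76.6, 71.3 and 86.8 CPM in KO-labelled and 132, 79.6 and 90.3 CPM in WT-labelled livers (log2 −0.36, SE 0.24, edgeR adjusted p = 0.673). The higher WT mean came from WT replicate 1: without that library the log2 change was −0.12. H2-T24, also in the T region, rested on few reads, at 2.09, 4.45 and 1.18 CPM in KO-labelled and 1.06, 1.60 and 1.60 CPM in WT-labelled livers. KO replicate 5 set its log2 change of 0.87 (SE 0.53), which was 0.18 without that library.

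The genes of the Q region went in both directions. H2-Q1 had the highest fitted change of the family, at 29.0, 19.6 and 27.1 CPM in KO-labelled livers and 3.74, 12.8 and 20.0 CPM in WT-labelled livers. KO replicate 5 lay just under WT replicate 3, and WT replicate 1 was far below every other library. The log2 change of 1.04 (SE 0.52, 95% interval −0.16 to 2.24, edgeR adjusted p = 0.623) was 0.61 without WT replicate 1 and 1.59 without WT replicate 3. H2-Q6 and H2-Q7 encode forms of Qa-2, an antigen anchored to the membrane by a lipid tail. H2-Q6 had 81.4, 32.3 and 53.0 CPM in KO-labelled and 25.8, 55.4 and 36.6 CPM in WT-labelled livers (log2 0.50, SE 0.39), with KO replicate 4 on top. The change was 0.12 without KO replicate 4 and −0.22 with the mitochondrial share as a covariate. H2-Q7 had 51.9, 38.5 and 42.6 CPM in KO-labelled and 60.1, 50.4 and 35.9 CPM in WT-labelled livers (log2 −0.14, SE 0.24).

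H2-Q4 stood at 76.4, 41.3 and 60.3 CPM in KO-labelled and 43.0, 69.3 and 48.9 CPM in WT-labelled livers (log2 0.14, SE 0.29). For both H2-Q4 and H2-Q6 the libraries above 50 CPM were KO replicates 4 and 6 and WT replicate 2, the same 3 that had the highest mitochondrial shares. The part of the mitochondrial share in these levels was not tested beyond the covariate fit, in which H2-Q4 had a log2 change of −0.33. H2-M3, which displays N-formylated peptides of bacteria, was scarce, at 2.27, 1.85 and 1.71 CPM in KO-labelled and 3.12, 2.24 and 2.24 CPM in WT-labelled livers (log2 −0.38, SE 0.35). The edgeR adjusted p of the 5 class Ib genes H2-Q4, H2-Q6, H2-Q7, H2-M3 and H2-T24 lay between 0.664 and 0.876.

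**Figure D3:**
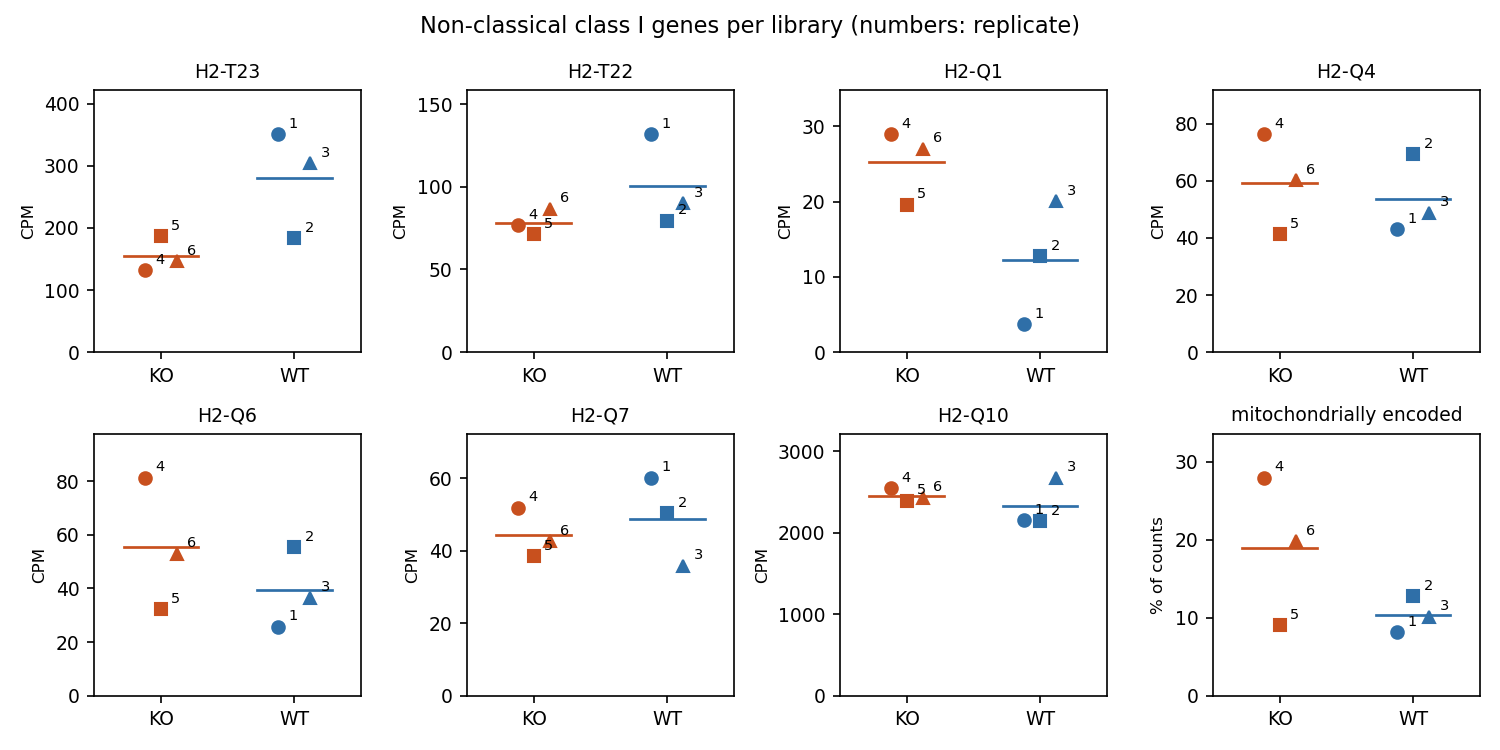
CPM of 7 class Ib genes and the mitochondrially encoded percentage of counts (y axes, from 0) in each library, KO-labelled left and WT-labelled right, with the replicate number beside each point and the group mean as a line. H2-T23 is at 187 CPM or less in the 3 KO libraries and WT replicate 2, and H2-Q4, H2-Q6 and the mitochondrial percentage share their 3 highest libraries.

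Class I genes are close copies of each other, which limits how far their reads can be told apart. In GENCODE M21 transcripts, 53.5% of the 50-base windows of H2-T22 also occur in a transcript of another gene, mostly H2-T10 (31.2%) and an antisense transcript. For H2-Q4 that share is 36.4%, for H2-Q6 35.0%, for H2-Q7 26.5%, for H2-Q10 19.1%, for H2-Q1 15.0%, for H2-T23 14.5%, for H2-D1 12.8% and for H2-K1 9.63%. B2m, Cd74, H2-Ab1 and H2-Eb1 share no such window, and H2-Aa shares 0.514%. Outside class I the share is 70.5% for H2-Ke6, 23.2% for Tapbp and, all of it with H2-DMb2, 22.65% for H2-DMb1. The sources used here do not say how reads matching several genes were counted. A level of any gene with shared windows carries that uncertainty, H2-T23, H2-D1, H2-K1 and Tap2 included.

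The remaining 13 class Ib members were barely seen or not seen. H2-Q2, H2-M2, H2-M5 and H2-M10.6 had at most 9 counts in any library. The other 9 (H2-T3, H2-M1, H2-M9, H2-M11 and 5 of the H2-M10 genes, which are known from vomeronasal neurons) had 0 counts in all 6 libraries, which allows up to 0.0301 CPM over the libraries together (3 counts, counting error only).

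Class II genes were expressed at a small part of the class I level and did not separate the groups either. H2-Aa and H2-Ab1 encode the alpha and beta chains of I-A. H2-Aa had 32.3, 22.9 and 23.5 CPM in KO-labelled and 15.95, 27.8 and 24.6 CPM in WT-labelled livers, with WT replicate 1 lowest and KO replicate 4 highest (log2 0.20, SE 0.27, 95% interval −0.41 to 0.82, edgeR adjusted p = 0.804). H2-Ab1 had 21.7, 24.8 and 18.1 CPM in KO-labelled and 19.9, 23.7 and 28.4 CPM in WT-labelled livers (log2 −0.15, SE 0.22, 95% interval −0.67 to 0.36, edgeR adjusted p = 0.821). H2-Eb1, the beta chain of I-E, had 30.2, 26.6 and 20.7 CPM in KO-labelled and 18.1, 25.5 and 26.8 CPM in WT-labelled livers (log2 0.14, SE 0.24, edgeR adjusted p = 0.854). Without WT replicate 1 the fitted log2 change was −0.00020 for H2-Aa and −0.022 for H2-Eb1. H2-Eb2 had 0 counts in every library.

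Summed per length, the 4 classical class II genes came to 56.0, 49.9 and 41.1 RPKM in KO-labelled and 35.9, 50.9 and 53.1 RPKM in WT-labelled livers. Class Ia exceeded this sum 14.9, 17.8 and 21.9 times in KO-labelled and 27.6, 14.4 and 15.1 times in WT-labelled livers. WT replicate 1 thus had both the highest class Ia and the lowest class II sum, and the other 5 libraries were closer together.

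Cd74, the invariant chain that escorts class II molecules to endosomes, stood at 45.1, 52.5 and 40.1 CPM in KO-labelled and 37.1, 42.0 and 46.9 CPM in WT-labelled livers (log2 0.13, SE 0.20, 95% interval −0.33 to 0.59, edgeR adjusted p = 0.836). Its RPKM was 0.571, 0.747 and 0.691 of the classical class II sum in KO-labelled and 0.732, 0.586 and 0.627 of it in WT-labelled livers. Ciita, the transactivator on which class II transcription depends, was scarce, with 23, 22 and 17 counts in KO-labelled and 7, 20 and 39 counts in WT-labelled libraries. Its interval was wide (log2 0.19, SE 0.60, 95% interval −1.19 to 1.57), and without WT replicate 3 the fitted change was 0.67.

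The non-classical class II genes act inside the cell. H2-DMa and H2-DMb1 encode chains of H2-M, which exchanges the invariant chain fragment for peptide. H2-DMa had 4.36, 3.43 and 2.43 CPM in KO-labelled and 3.12, 3.59 and 3.06 CPM in WT-labelled livers (log2 0.06, SE 0.33), and H2-DMb1 had 2.82, 2.96 and 1.77 CPM in KO-labelled and 1.87, 1.60 and 2.72 CPM in WT-labelled livers (log2 0.28, SE 0.39). H2-Ob, a chain of the H2-O molecule that restrains H2-M, had 18, 15 and 12 counts in KO-labelled and 10, 27 and 36 counts in WT-labelled libraries (log2 −0.43, SE 0.57). Each of the 3 had overlapping groups, at edgeR adjusted p between 0.805 and 0.957. H2-DMb2 and H2-Oa, with at most 23 counts in any library, were not tested.

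H2-Ke6 shares the prefix by its place in the complex alone. It encodes a hydroxysteroid dehydrogenase (also called Hsd17b8), not an MHC molecule. H2-Ke6 had 10, 8 and 14 counts in KO-labelled and 6, 16 and 15 counts in WT-labelled libraries. Of its transcript windows, 70.5% also occur in a transcript of Gm20427, and how such shared reads were counted is not known. Whether these few counts reflect low expression was not tested.

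Class I, class II and non-classical genes had median changes between 0.06 and 0.14 on the log2 scale. Over the tested members the median log2 change was 0.06 for class Ia (2 genes), 0.08 for class Ib (9 genes), 0.14 for classical class II (3 genes), 0.06 for non-classical class II (3 genes) and 0.10 for the 6 genes of assembly, loading and regulation. Classes differed more in their spread, with class Ib reaching from −0.85 to 1.04 and the 2 class Ia genes from 0.04 to 0.07. Leaving out 1 library turned the sign of 4 of these medians. Without KO replicate 4 the median was −0.15 for non-classical class II and −0.082 for class Ib. It was −0.022 for classical class II without WT replicate 1, and −0.060 for class Ia without WT replicate 2. Without WT replicate 1 the non-classical class II median was −0.34, but over 4 genes, as another gene passed the filter there. The 3 genes tested with all libraries stood in that fit at 0.029 (H2-DMa), 0.21 (H2-DMb1) and −0.78 (H2-Ob). The medians are descriptions of few genes, and no test of the difference between classes was made.

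Markers of cells that can carry class II are set beside these levels. The 10 Kupffer cell markers summed to 211 to 281 CPM in KO-labelled and 129 to 176 CPM in WT-labelled livers, with 10 of 10 fitted higher (median log2 0.69). The 8 markers of sinusoidal endothelium summed to 279 to 428 CPM in KO-labelled and 173 to 238 CPM in WT-labelled livers, with 8 of 8 fitted higher (median log2 0.68). None of the 18 passed over all genes with edgeR. Clec4f, a lectin of Kupffer cells, had 100 ± 37.1 CPM in KO-labelled and 52.4 ± 13.3 CPM in WT-labelled livers (SD, n = 3 each). By library it stood at 112, 59.0 and 131 CPM in KO replicates 4, 5 and 6, and at 37.1, 59.8 and 60.3 CPM in WT replicates 1, 2 and 3. Its higher KO mean thus came from KO replicates 4 and 6, which had the highest mitochondrial shares. C1qa, a complement subunit made by macrophages, had 46.5 ± 5.63 CPM in KO-labelled and 26.2 ± 6.19 CPM in WT-labelled livers. Eng and Stab1, both receptors of sinusoidal endothelium, had log2 changes of 1.04 (SE 0.30) and 1.02 (SE 0.42). Stab1 stood at 105, 51.7 and 115 CPM in KO replicates 4, 5 and 6, and at 24.1, 62.5 and 47.0 CPM in WT replicates 1, 2 and 3, so its 3 highest libraries were those with the highest mitochondrial shares. The endothelial sum was also highest in KO replicates 4 and 6 and, among WT libraries, in WT replicate 2. The part of the mitochondrial share in these markers was not tested. In Clec4f and Stab1 the groups overlapped, whereas C1qa and Eng were higher in every KO library than in any WT library. Separation in that direction was found for 8.12% of all tested genes, and its share among sums of genes was not worked out. The classical class II sum came to 49.0 ± 7.49 RPKM in KO-labelled and 46.6 ± 9.34 RPKM in WT-labelled livers.

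Dendritic cell markers summed to 12.9 to 24.1 CPM in KO-labelled and 6.79 to 27.5 CPM in WT-labelled livers (7 of 10 tested, 5 fitted higher). B cell markers summed to 3.15 to 10.4 CPM in KO-labelled and 3.37 to 10.1 CPM in WT-labelled livers (6 of 8 tested, 3 fitted higher). Both sums were lowest in KO replicate 5 and WT replicate 1. The classical class II sum was also lowest in WT replicate 1, whereas KO replicate 5 stood in the middle of the libraries. Zbtb46, a transcription factor of dendritic cells, averaged 6.70 ± 1.90 CPM in KO-labelled and 6.57 ± 5.02 CPM in WT-labelled livers (SD, n = 3 each). Clec9a, a receptor of dendritic cells, had a fitted log2 change of 0.28 (SE 0.58), and Cd22, a B cell lectin, of 0.19 (SE 0.73). Monocyte markers summed to 14.2 to 15.3 CPM in KO-labelled and 11.96 to 15.9 CPM in WT-labelled livers, and T and natural killer cell markers to 1.99 to 4.47 CPM in KO-labelled and 2.82 to 6.29 CPM in WT-labelled livers (3 of 9 tested). Plac8 and Ccr2 led the monocyte list, with fitted log2 changes of 0.25 (SE 0.23) and 0.53 (SE 0.55). Cd4, the co-receptor that binds class II and is also found on other leukocytes, had 0.490 ± 0.0571 CPM in KO-labelled and 2.31 ± 1.63 CPM in WT-labelled livers (SD, n = 3 each; log2 −2.21, SE 0.59, edgeR adjusted p = 0.400), with every KO library below every WT library. Separation in that direction was found for 5.73% of all tested genes. Cd4 rested on 5, 12 and 7 counts in KO-labelled and 67, 18 and 33 counts in WT-labelled libraries, with WT replicate 1 highest. Cd3g, a chain of the T cell receptor complex, had a log2 change of 0.55 (SE 0.62). The 4 general leukocyte markers summed to 19.5 to 33.0 CPM in KO-labelled and 18.6 to 23.9 CPM in WT-labelled livers (4 of 4 fitted higher), and cholangiocyte markers to 7.55 to 9.26 CPM in KO-labelled and 6.18 to 11.1 CPM in WT-labelled livers (4 of 5 tested, 3 fitted higher). No marker of these lists was at 0 in all libraries, though Chil3 and Ncr1 had 12 counts or fewer over the 6. Their part in the class II levels was not tested.

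**Figure D4:**
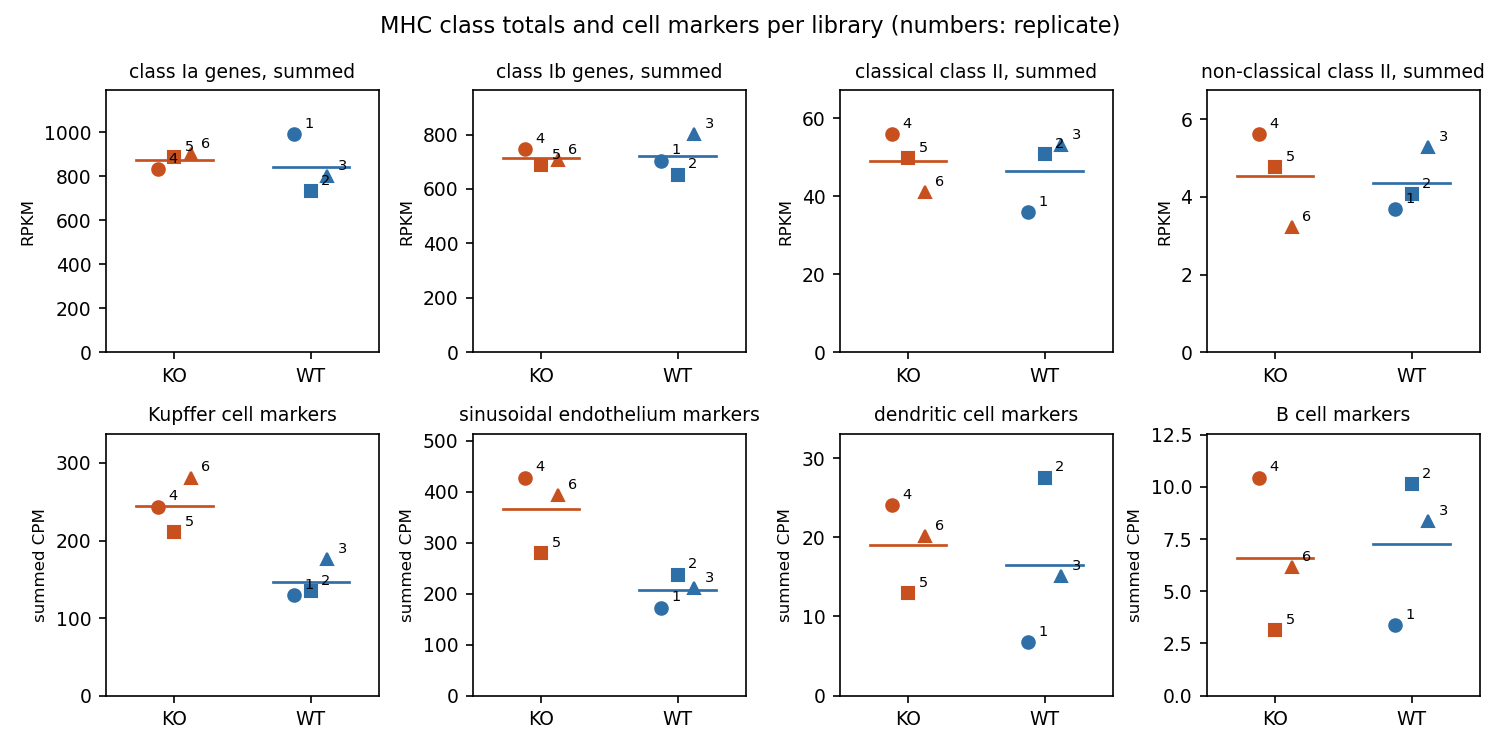
Summed RPKM of the MHC classes (upper row) and summed CPM of marker genes of cells that carry class II (lower row) in each library, KO-labelled left and WT-labelled right, with replicate numbers and group means. The class sums overlap between the groups, and the Kupffer cell and endothelial sums lie higher in all 3 KO libraries. Of single tested genes, 8.12% lay wholly higher in KO libraries.

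Other genes of antigen processing were looked at in lists chosen by function. None of the 55 tested genes in 7 lists passed over all genes with edgeR, and 3 had an unadjusted p under 0.05 (Procr, Gbp3 and Oasl2), a smaller share than the 8.58% of all tested genes. All 6 genes of class I folding and trimming were fitted lower (median log2 −0.37). Erap1, the aminopeptidase that trims peptides for class I, had 27.3 ± 5.75 CPM in KO-labelled and 41.7 ± 14.3 CPM in WT-labelled livers (SD, n = 3 each; log2 −0.61, SE 0.29, edgeR adjusted p = 0.616). Canx, the chaperone calnexin, had 96.3 ± 67.2 CPM in KO-labelled and 186 ± 105 CPM in WT-labelled livers (SD, n = 3 each; log2 −0.95, SE 0.58). By library, Canx stood at 49.6, 173 and 66.0 CPM in KO replicates 4, 5 and 6, and at 291, 81.1 and 185 CPM in WT replicates 1, 2 and 3. All 6 genes of the list had their 3 lowest levels in KO replicates 4 and 6 and WT replicate 2, the libraries with the highest mitochondrial shares (28%, 19.8% and 12.7%), whose part in the lower fitted values was not tested. The immunoproteasome and its activator had 3 of 5 genes fitted higher (median 0.10), with Psmb10, a catalytic subunit, at −0.35 (SE 0.21) and Psme2, an activator subunit, at 0.13 (SE 0.21).

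Of 8 genes of class II processing, 3 were fitted higher and 5 lower (median log2 −0.07), among them the proteases Ctsl at −0.76 (SE 0.53) and Ctsd at 0.34 (SE 0.22). The 10 regulators of MHC promoters split 5 and 5 (median −0.03). Creb1, a factor of the X2 element, had a log2 change of −0.38 (SE 0.25). Nfyb, a subunit of the factor that binds CCAAT, is named after its values were seen. It had 22.1 ± 1.12 CPM in KO-labelled and 25.7 ± 3.04 CPM in WT-labelled livers (SD, n = 3 each, log2 −0.22, SE 0.19). Every KO library of Nfyb lay below every WT library. Of the 10 regulators, 1 lay wholly lower and 1 wholly higher in KO libraries, against 5.73% and 8.12% of all tested genes. Interferon-induced genes split 9 higher and 6 lower (median 0.05), with Gbp3 at 0.90 (SE 0.33, edgeR adjusted p = 0.521) and Oasl2 at 0.95 (SE 0.35, edgeR adjusted p = 0.523). The co-stimulatory ligands had 3 of 4 tested genes fitted higher (median 0.54), Cd86 at 0.75 (SE 0.43) and Icosl at 0.97 (SE 0.60).

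Of the 7 tested class I-like genes outside the H2- names, 1 had groups that did not overlap, a share close to the 13.9% of all tested genes. Procr, the endothelial protein C receptor, had 1.21 ± 0.171 CPM in KO-labelled and 0.373 ± 0.0985 CPM in WT-labelled livers (SD, n = 3 each; log2 1.67, SE 0.46, edgeR adjusted p = 0.400). Fcgrt, the heavy chain of the neonatal Fc receptor, which pairs with B2m, had 160 ± 29.6 CPM in KO-labelled and 180 ± 49.97 CPM in WT-labelled livers (SD, n = 3 each; log2 −0.17, SE 0.27). Of the 7 tested genes of this list, 3 were fitted higher and 4 lower (median −0.04).

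Of the 40 members, 37 lie on chromosome 17, which also carries Trem2. They end between 10.9 Mb (H2-M2) and 14.4 Mb (Tapbp) before Trem2. Whether the 2 groups carried the same H2 alleles was not tested.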

How the data were processed

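Liver RNA of 6 libraries was sequenced and analysed from 2 deposited tables. The counts are whole reads per gene as the authors deposited them, and the FPKM values are the authors' normalization of such counts per gene length and depth, used as an alternative only. Per the submitters' processing notes the build was mm10 and the tools included featureCounts 1.5.0-p3, HISAT2 2.0.5 and DESeq2 1.16.1; their settings, read length and strand handling are not given in the sources used here. Counts were tested with edgeR 4.0.16 (R 4.3.3; TMM, filterByExpr, quasi-likelihood, Benjamini-Hochberg over all 13693 tested genes), KO over WT, with no covariate. DESeq2 1.42.0 and limma 3.58.1 were alternatives. RPKM was computed from the TMM-scaled CPM and the deposited gene length. In simulated data, edgeR called 4 of 50 genes changed 2-fold and 29 of 50 changed 4-fold. It also called 10 unchanged genes, in a fit of 13693 genes. A 2-fold change in a member could thus easily be missed by the test. Biological variation between libraries came to 34.7% (edgeR), and no library pair agreed within sampling noise (lowest chi-square per degree of freedom 42.3).

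The members, gene lists and markers were chosen with earlier results of these data known. Every member averaging at least 1 CPM is named, as are the 2 genes with the smallest p of each list and the 2 most abundant markers of the cell types that bear on class II. The hepatocyte, cholangiocyte and general leukocyte lists are given by their sums and counts, apart from Apoa1 and Serpina1a, named after their values were seen. A few genes that this rule names are not reported here. Shared windows were counted in GENCODE M21, where all 40 members were found, 30 at the position of the count table. Promoters are from RefSeq (GRCm38.p6).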

Additional observations from a re-analysis of the deposited data

How the results depend on the processing

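The mice are described as littermates, but no paired analysis was possible because the labels give no litter, batch or pairing of single libraries. Over 19 alternatives, named members gave 437 values, of which 384 kept their direction and side of the threshold, 51 changed sign and 2 passed it. Genes called over all tested (2 here) numbered 1 with library totals, limma-voom and the mitochondrial covariate each, 61 with no filter, 176 with DESeq2, 4063 with quality weights, 0 without WT replicate 1 and KO replicate 4 together, and 0 to 1 without 1 library. Quality weights called 2 members, H2-T23 at log2 −1.03 (adjusted p = 0.00925) and H2-Ab1 at −0.49, and 17 other antigen-processing genes; H2-T23 ranged from −1.08 to −0.50 over all alternatives. The covariate and the removal of both libraries were chosen after seeing the data. The cause of these shifts was not tested.

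With quality weights the median log2 change was −0.17 for classical class II, −0.33 for non-classical class II and −0.088 for assembly and loading, and the changes were B2m 0.24, H2-Q10 −0.078, Cd74 −0.12, Tapbp −0.090, H2-Eb1 −0.17, H2-Q7 0.21, Tap1 −0.085, H2-DMa −0.13, H2-DMb1 −0.33, H2-T24 −0.041 and Ciita −0.41. B2m was 0.014 with upper-quartile scaling. Tapbp was −0.015 with RLE, DESeq2 and no filter, −0.0051 without mitochondrial genes and −0.013 with either FPKM pseudocount. With FPKM + 1 the assembly median was 0.024, and with FPKM + 0.1 H2-DMa was −0.0054. With the covariate the class Ib median was −0.26, H2-Q6 −0.22, H2-Q4 −0.33, H2-Aa −0.070, Tap1 −0.015, H2-DMa −0.043 and Ciita −0.34.

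Without WT replicate 1 and KO replicate 4 together the medians were 0.28 (class Ia), −0.10 (class Ib), −0.17 (classical class II) and 0.0051 (assembly), with H2-K1 0.15, H2-D1 0.41, Tapbp 0.12, H2-Q6 −0.11, H2-Q4 −0.22, H2-Eb1 −0.14, H2-Aa −0.17, Tap1 −0.085, H2-DMa −0.18 and Ciita −0.58. Without 1 library at a time, the medians ran from −0.060 to 0.22 (class Ia), −0.082 to 0.092 (class Ib) and −0.022 to 0.27 (classical class II). They ran from 0.0013 to 0.19 for assembly and from −0.34 to 0.015 for non-classical class II. The −0.34, without WT replicate 1, was over 4 genes, not the 3 tested with all libraries. In the same fits, the log2 change of single genes ran from −0.16 to 0.072 (B2m), −0.022 to 0.14 (H2-K1), −0.099 to 0.31 (H2-D1), −0.13 to 0.082 (Tapbp), 0.12 to 0.82 (H2-Q6, which changed sign only in the covariate and 2-library fits), −0.082 to 0.36 (H2-Q4), −0.022 to 0.27 (H2-Eb1), −0.00020 to 0.36 (H2-Aa), −0.34 to 0.038 (H2-Q7), −0.082 to 0.19 (Tap1), −0.15 to 0.25 (H2-DMa) and −0.21 to 0.67 (Ciita). Few counts limit the scarce members most, and the interval of 9 of 24 tested members reached past 2-fold.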

Other observations

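Other genes with H2- names carry a biotype other than protein-coding and were not members; those described here were chosen after their values were seen. H2-T10, annotated as a polymorphic pseudogene and the gene that shares most windows with H2-T22, had 133, 192 and 187 counts in KO-labelled and 42, 101 and 61 counts in WT-labelled libraries (log2 1.46, SE 0.38, edgeR adjusted p = 0.400). Its groups did not overlap, and its sign was opposite to that of H2-T22. H2-Bl, of the same biotype, had 129, 427 and 154 counts in KO-labelled and 13, 97 and 31 counts in WT-labelled libraries (log2 2.30, SE 0.69, edgeR adjusted p = 0.429), again without overlap. H2-K2, an unprocessed pseudogene, had 401, 151 and 435 counts in KO-labelled and 44, 315 and 188 counts in WT-labelled libraries (log2 1.163, SE 0.76), and H2-Q5 had 32, 55 and 53 counts in KO-labelled and 49, 94 and 91 counts in WT-labelled libraries (log2 −0.60, SE 0.35). H2-Ea-ps, named for the alpha chain partner of H2-Eb1, had 0 counts in all 6 libraries. Non-overlap was found for 13.9% of all tested genes.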
